A study of Homo sapiens with 8 samples.

Results

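The genes described here encode the plasminogen activators PLAU (urokinase, uPA) and PLAT (tissue-type activator, tPA), the urokinase receptor PLAUR (uPAR), and 2 serpins that block the activators, SERPINE2 (protease nexin-1) and SERPINB2 (plasminogen activator inhibitor type 2). They are 5 of the 60666 genes in the deposited table, chosen by name, with earlier results of these data known. The study sequenced bulk RNA of MRC5 cells, an established human line of lung fibroblasts, and has 4 groups with 2 libraries in each. Cells with the control hairpin shMock were sampled as controls or after TGF-β1, and so were cells with the hairpin shMTHFD2, directed against the mitochondrial folate enzyme MTHFD2. Per the labels, TGF-β1 was used at 4 ng (no volume is stated) for 24 h. All 4 groups carry a hairpin, each arm holds a single hairpin line, and no rescue or untransduced line was analysed here, so loss of MTHFD2 and other differences between the lines cannot be told apart. Nothing in the labels says that the libraries of a group came from separate cultures, so p-values rest on a spread between libraries that may be technical only.

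Plasminogen activators cut the circulating zymogen plasminogen into plasmin, a broad protease that dissolves fibrin, cleaves matrix proteins and activates growth factors and other proteases. Urokinase works mostly at the cell surface, held there by its receptor, which also touches integrins and vitronectin, while tissue-type activator works mostly on fibrin. Serpins act as suicide substrates: the protease cleaves the serpin's reactive loop and is trapped in a covalent complex that clearance receptors take up. In lung fibrosis the balance of activators and inhibitors is known for setting how fast fibrin and provisional matrix are removed, and TGF-β1 is known to shift it in fibroblasts.

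The letters just before a listed start site of 4 members are shown because these genes responded in opposite directions to the same cytokine. PLAT, which fell, was left out of the search. The letters shown are RefSeq sequences on build GRCh38.p14, written 5′ to 3′ on the gene's strand. Capitals mark 1 or more matches to a motif searched. The AP-1 motif was searched as TGANTCA. The TATA box was searched as TATAAA. For SP1 the letters were GGGCGG. For the SMAD element they were CAGAC, which is in capitals for PLAU only. SERPINE2, chr2:224031479-224031728, minus strand, shows the downstream of 2 listed start sites, and SERPINB2, chr18:63887455-63887699, plus strand, shows its only listed one. The last 5 bases before the SERPINB2 start, annotated as UTR, are left out, so its stretch ends 5 bases short of the start. PLAUR, chr19:43670339-43670365, minus strand, and PLAU, chr10:73910942-73910966, plus strand, are short stretches around 1 match. All 4 stretches lie within the annotated spans of their genes, since other transcripts start farther upstream. The 250 bases searched before the PLAUR start and before each PLAU start are annotated as UTR throughout. A base was counted as UTR where a UTR of any gene on either strand covers it, so it need not be the member's own.
SERPINE2: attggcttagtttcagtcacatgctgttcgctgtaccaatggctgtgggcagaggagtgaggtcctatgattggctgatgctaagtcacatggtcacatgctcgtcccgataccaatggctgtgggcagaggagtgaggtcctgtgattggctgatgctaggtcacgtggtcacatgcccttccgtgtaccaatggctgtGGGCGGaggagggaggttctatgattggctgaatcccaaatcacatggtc
SERPINB2: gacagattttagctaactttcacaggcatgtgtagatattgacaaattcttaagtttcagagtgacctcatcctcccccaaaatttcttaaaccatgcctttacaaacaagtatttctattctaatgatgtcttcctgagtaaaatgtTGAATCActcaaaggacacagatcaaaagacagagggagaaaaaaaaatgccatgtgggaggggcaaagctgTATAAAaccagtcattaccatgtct
PLAUR: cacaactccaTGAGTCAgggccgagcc
PLAU: ttcctcagtcCAGACgctgttgggt

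Each motif was searched on both strands of the 250 bases before a start site, and no matched stretch overlapped another. TGANTCA stood 102 bases before the start of SERPINB2, which fell with TGF-β1, and 186 bases before that of PLAUR, which rose. Of 35116 RefSeq promoter windows of the same length, 6.57% hold it. TATAAA stood 30 bases before the SERPINB2 start and is in 10.7% of windows. CAGAC was found before the starts of SERPINB2, PLAUR and PLAU, which moved in different directions, and is in 38.0% of windows. GGGCGG was found 50 bases before the downstream SERPINE2 start, at 2 places before its upstream start and at 3 places before a PLAU start, and is in 42.6% of windows. A match describes letters only; gene counts do not show which start site was used.

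The 8 libraries held 18162738 to 22221927 counts, so 3 counts equal 0.135 to 0.172 CPM, the count rescaled so that libraries of different depth compare. CPM is given on library sizes scaled by the trimmed mean of M-values (TMM), a factor that evens out composition. The targeted gene came first as a check of the labels. In control cells MTHFD2 stood at 58.8 and 57.2 CPM with shMock, against 14.9 and 18.7 CPM with shMTHFD2. With TGF-β1 it stood at 256 and 258 CPM in shMock and at 93.8 and 91.9 CPM in shMTHFD2. MTHFD2 was thus lower in every shMTHFD2 library than in the shMock libraries of the same treatment, but after TGF-β1 the shMTHFD2 line held more of it than untreated shMock cells. All 9 fibroblast markers were tested, and 10 of 14 markers of epithelial, endothelial, immune, muscle and mesothelial cells had any count. Of the 14, VWF and MSLN reached the minimum of 1 CPM on average and were tested, with group means of up to 2.24 and 1.51 CPM. The summed level of those 14 ran from 2.19 to 4.44 CPM over the libraries, with overlapping ranges in the 4 groups. KRT19, PECAM1, CDH5 and DES were at 0 in all 8. In bulk RNA, fewer cells of a kind and less RNA per cell cannot be told apart.

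TGF-β1 moved all 5 genes in both lines, in a split pattern. SERPINE2 rose 6.35-fold in shMock cells, against 6.66-fold in shMTHFD2 cells, and PLAUR rose 1.54-fold and 1.84-fold. PLAU fell 2.65-fold and 2.67-fold, PLAT fell 2.53-fold and 2.41-fold, and SERPINB2 fell 20.5-fold and 13.5-fold. The activators and 1 inhibitor thus fell while the other inhibitor and the receptor rose. Each of the 5 passed edgeR's quasi-likelihood test at an adjusted p (Benjamini-Hochberg over 13493 tested genes) under 0.05, with no overlap between treated and control libraries. Libraries without overlap were common: over all tested genes 31.9% were higher and 36.0% lower without overlap in shMock, and 29.2% and 30.4% in shMTHFD2. Over the same genes, TGF-β1 called 17.3% higher and 18.1% lower in shMock, and 12.8% higher and 11.0% lower in shMTHFD2, with medians of -0.02 and -0.01 on the log2 scale. The members' median log2 fold changes, -1.34 and -1.27, mix the opposite directions. The 2 lines' treated and control libraries are separate, but the members were fitted together, so both responses share 1 estimate of spread.

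**Figure D1:**
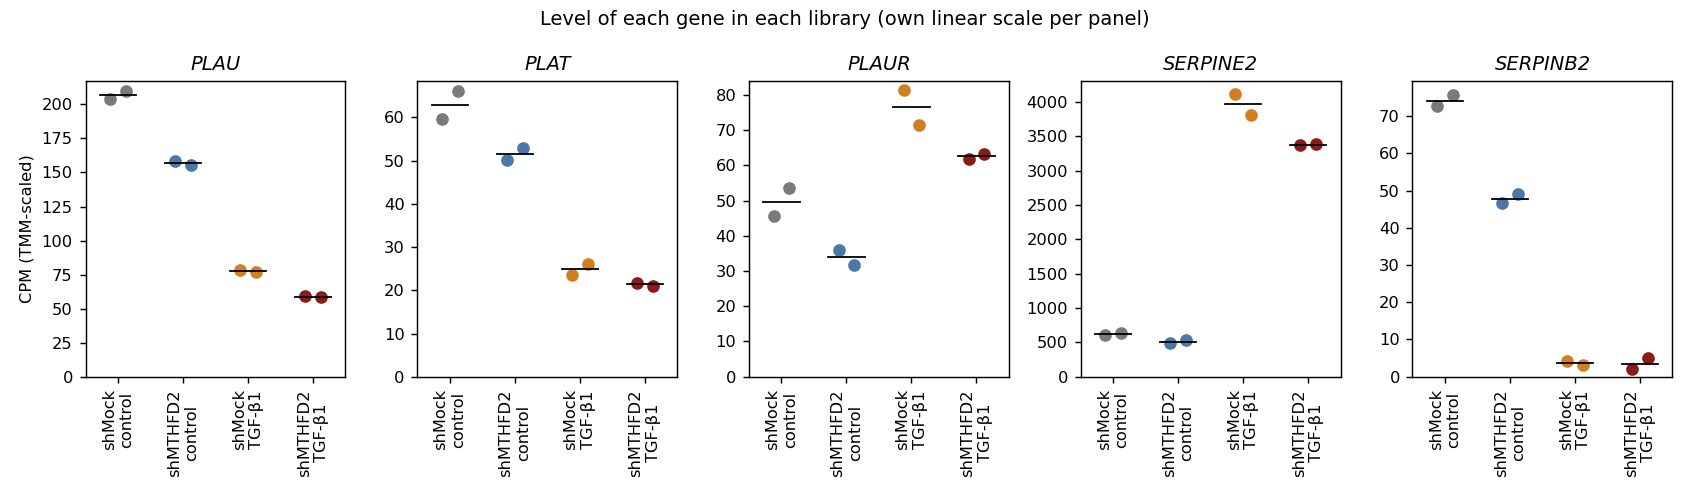
Level of each gene in each library, in CPM on TMM-scaled library sizes, with a linear scale of its own in each panel that starts at 0. Points are libraries, bars are means of the 2 libraries of a group. PLAU, PLAT and SERPINB2 are lower and PLAUR and SERPINE2 higher in every TGF-β1 library than in every control library of the same line.

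PLAU, the urokinase gene (ENSG00000122861), lies on the plus strand at chr10:73909177-73917497 of GRCh38. In shMock it was at 204 and 210 CPM in controls and at 78.6 and 77.2 CPM after TGF-β1. In shMTHFD2 it was 159 and 156 CPM in controls and 59.1 and 58.6 CPM after TGF-β1. The 4 groups did not overlap, and the order was shMock control, shMTHFD2 control, shMock with TGF-β1 and shMTHFD2 with TGF-β1. The log2 fold change with TGF-β1 was -1.41 (SE 0.08) in shMock, at an adjusted p of 1.19e-09 by edgeR, and -1.42 (SE 0.08) in shMTHFD2. PLAU shares 916 exon bases, 31.1% of its own, with C10orf55 on the opposite strand, which had 5 to 24 counts in a library against 1152 or more for PLAU, and the use of strand in counting is not given in the sources used here.

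PLAT, the tissue-type activator gene (ENSG00000104368), was the less abundant activator. It stood at 59.7 and 66.2 CPM in shMock controls and at 23.6 and 26.1 CPM after TGF-β1. In shMTHFD2 it stood at 50.1 and 52.9 CPM in controls and at 21.7 and 21.0 CPM after TGF-β1. All treated libraries were below all control libraries. The log2 fold change with TGF-β1 was -1.34 (SE 0.10) in shMock, at an adjusted p of 5.89e-08, and -1.27 (SE 0.10) in shMTHFD2, at 1.48e-07 (edgeR). Per kb of exons, the ratio of PLAU to PLAT was 7.39 ± 0.40 (SD, n = 2) in shMock controls and 7.05 ± 0.59 after TGF-β1, with overlapping libraries. In shMTHFD2 it was 6.85 ± 0.36 in controls and 6.18 ± 0.09 after TGF-β1, where the treated libraries lay below the controls.

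PLAUR, the receptor gene (ENSG00000011422; chr19:43646095-43670547, minus strand), went the other way from its ligand PLAU. Its RNA was at 45.6 and 53.6 CPM in shMock controls and 81.5 and 71.5 CPM with TGF-β1. In shMTHFD2 it was 36.1 and 31.7 CPM in controls and 61.9 and 63.2 CPM with TGF-β1. The shMTHFD2 controls were the lowest libraries and the shMock libraries with TGF-β1 the highest, and no groups overlapped. The rise was 0.63 (SE 0.10) on the log2 scale in shMock, at an adjusted p of 0.000204, and 0.88 (SE 0.11) in shMTHFD2, at 1.24e-05 (edgeR). The ratio of PLAUR to PLAU per kb went from 0.159 ± 0.015 to 0.649 ± 0.052 in shMock and from 0.143 ± 0.011 to 0.704 ± 0.015 in shMTHFD2 (SD, n = 2).

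SERPINE2 (ENSG00000135919; chr2:223975112-224039319, minus strand) encodes a secreted inhibitor of thrombin, urokinase and plasmin, and was the most abundant member in CPM in every library. It stood at 609 and 641 CPM in shMock controls and at 4121 and 3812 CPM with TGF-β1. In shMTHFD2 it stood at 486 and 528 CPM in controls and at 3365 and 3389 CPM with TGF-β1. After TGF-β1 its counts made up 0.376% and 0.358% of the shMock libraries, against 0.0610% and 0.0664% in controls. The log2 fold change was 2.67 (SE 0.09) in shMock, at an adjusted p of 8.58e-12, and 2.74 (SE 0.09) in shMTHFD2, at 1.09e-11 (edgeR). It ranked 66th and 61st from the highest fold change among the 13493 genes.

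SERPINB2 (ENSG00000197632; chr18:63871692-63903890, plus strand), a mostly intracellular inhibitor of urokinase, showed the deepest fall of the members. It was measured at 72.6 and 75.7 CPM in shMock controls and 4.10 and 3.10 CPM with TGF-β1. In shMTHFD2 it was 46.7 and 49.0 CPM in controls and 2.14 and 4.93 CPM with TGF-β1, the last resting on 42 and 97 counts. The treated libraries of both lines overlapped each other and lay far below all controls. The log2 fold change was -4.36 (SE 0.21) in shMock, at an adjusted p of 4.53e-10 (edgeR), the 4th lowest of all tested genes. In shMTHFD2 it was -3.75 (SE 0.21), at 3.20e-09 and 8th lowest, and ran from -4.47 without shMTHFD2 TGF-β1 library 2 to -3.28 without library 1 of that group. SERPINB2 shares 547 exon bases, 19.9% of its own, with SERPINB10 on the same strand, which had 0 to 7 counts in a library.

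The order of the genes by level changed with treatment. Per kb of exons, shMock controls held 70.3 ± 2.5 CPM of SERPINE2 and 70.1 ± 1.3 of PLAU (SD, n = 2), whose libraries overlapped, then 27.0 ± 0.8 of SERPINB2, 11.1 ± 1.3 of PLAUR and 9.51 ± 0.70 of PLAT. With TGF-β1 the order in shMock was SERPINE2 at 446 ± 25, PLAU at 26.4 ± 0.3, PLAUR at 17.2 ± 1.6, PLAT at 3.76 ± 0.27 and SERPINB2 at 1.31 ± 0.26, with no overlap between neighbours. In shMTHFD2 the order was the same within each treatment, except that PLAT and PLAUR overlapped in controls, at 7.78 ± 0.30 and 7.61 ± 0.70 CPM per kb. SERPINB2 thus went from the third place to the last in both lines. The order of PLAU and PLAUR with TGF-β1, however, depends on the scaling by length. In CPM their shMock libraries overlapped there, at 78.6 and 77.2 for PLAU against 81.5 and 71.5 for PLAUR. In shMTHFD2 PLAUR lay above PLAU in CPM, at 61.9 and 63.2 against 59.1 and 58.6. The ratio of SERPINE2 to PLAU per kb was 0.991 and 1.02 in the shMock controls and 17.4 and 16.4 with TGF-β1, and 1.07 ± 0.08 (SD, n = 2) and 19.1 ± 0.2 in shMTHFD2. Adding SERPINB2 to the inhibitors and PLAT to the activators gave 1.22 ± 0.01 and 14.8 ± 0.8 in shMock, and 1.22 ± 0.07 and 16.5 ± 0.2 in shMTHFD2. SERPINB2 RNA was 0.384 of SERPINE2 RNA per kb in shMock controls and 0.00292 with TGF-β1. Ratios and orders between genes, here and above, depend on the merged exon lengths, 8891 bases for SERPINE2 and 2950 for PLAU. Which transcripts were expressed was not determined, and the divisor of a gene is the same in every group. In CPM, shMock controls held a mean of 625 of SERPINE2 and 207 of PLAU. The ratios are of RNA and say nothing of protein or activity.

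**Figure D2:**
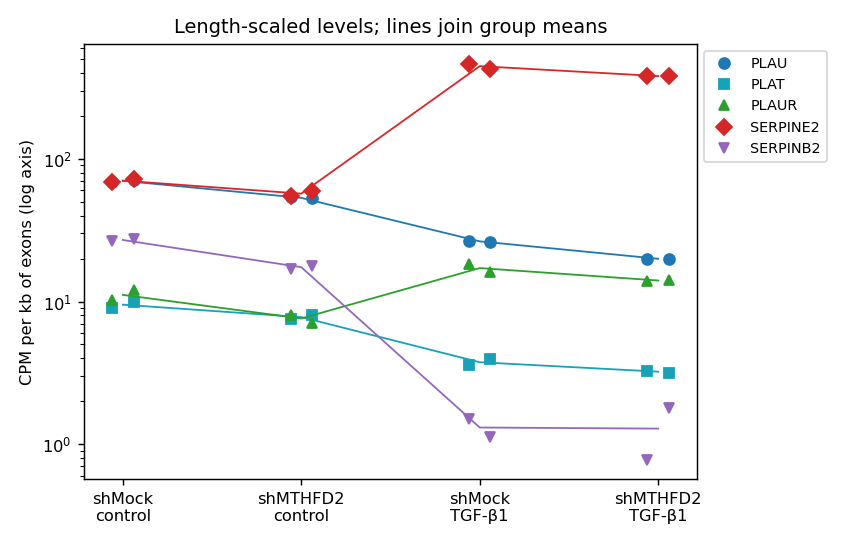
Level per kb of exons in each library, in CPM per kb on a log axis. Symbols are libraries and lines join the group means. On this scale SERPINE2 and PLAU start together at about 70.3 and 70.1 in shMock controls and are 446 and 26.4 with TGF-β1, and SERPINB2 falls below PLAT. Distances between genes depend on the merged exon lengths used for scaling.

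Knockdown in untreated cells went with lower RNA for most of the set. In shMTHFD2 controls 4 of the 5 genes were called lower than in shMock controls and none higher, against 8.19% of all tested genes called lower and 3.25% higher. The log2 fold change was -0.40 (SE 0.07) for PLAU, at an adjusted p of 0.00242, and -0.55 (SE 0.11) for PLAUR, at 0.00353 (edgeR). For the serpins it was -0.30 (SE 0.08) for SERPINE2, at 0.0319, and -0.63 (SE 0.16) for SERPINB2, at 0.0207. PLAT was at -0.29 (SE 0.09) with an adjusted p of 0.0623. All 5 genes had both shMTHFD2 libraries below both shMock libraries, as had 30.1% of all tested genes, while 25.2% had both above. The median was -0.40 against -0.01 over all tested genes.

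These differences are smaller than those with TGF-β1 and rest on few libraries. Without shMock control library 2, none of the 5 was called: the adjusted p was 0.0520 for PLAU and 0.0821 for PLAUR. Without shMTHFD2 control library 2, PLAUR was at 0.0633. The SERPINE2 and SERPINB2 calls ended without any 1 of the 4 control libraries. That of SERPINE2 also ended without either shMTHFD2 TGF-β1 library, which are in neither group compared but in the same fit. It ended with library totals in place of TMM as well (0.0691). SERPINB2 did not pass in DESeq2 (0.364).

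With TGF-β1, PLAU alone was called, and lower, between the lines. Its log2 fold change was -0.41 (SE 0.08), or 1.33-fold, at an adjusted p of 0.00300 (edgeR), and it passed without each of the 8 libraries in turn, at 0.00252 to 0.0318. Over all tested genes 8.23% were called lower and 4.83% higher. The values were -0.22 (SE 0.11, adjusted p 0.196) for PLAT, -0.29 (SE 0.10, 0.0745) for PLAUR and -0.23 (SE 0.08, 0.0837) for SERPINE2. For these, too, both shMTHFD2 libraries lay below both shMock libraries, as for 27.4% of all tested genes, while for 26.6% both lay above. SERPINE2 passed in DESeq2 (0.0109), and PLAUR passed with no filter on low counts (0.0486). PLAUR also passed with offsets for GC content and the length of the gene's longest transcript (0.0168). SERPINB2 was at -0.03 (SE 0.28, adjusted p 0.958), with overlapping libraries, and its value was -0.75 without shMTHFD2 TGF-β1 library 2 and 0.44 without library 1 of that group. The 2 knockdown comparisons share no library.

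**Figure D3:**
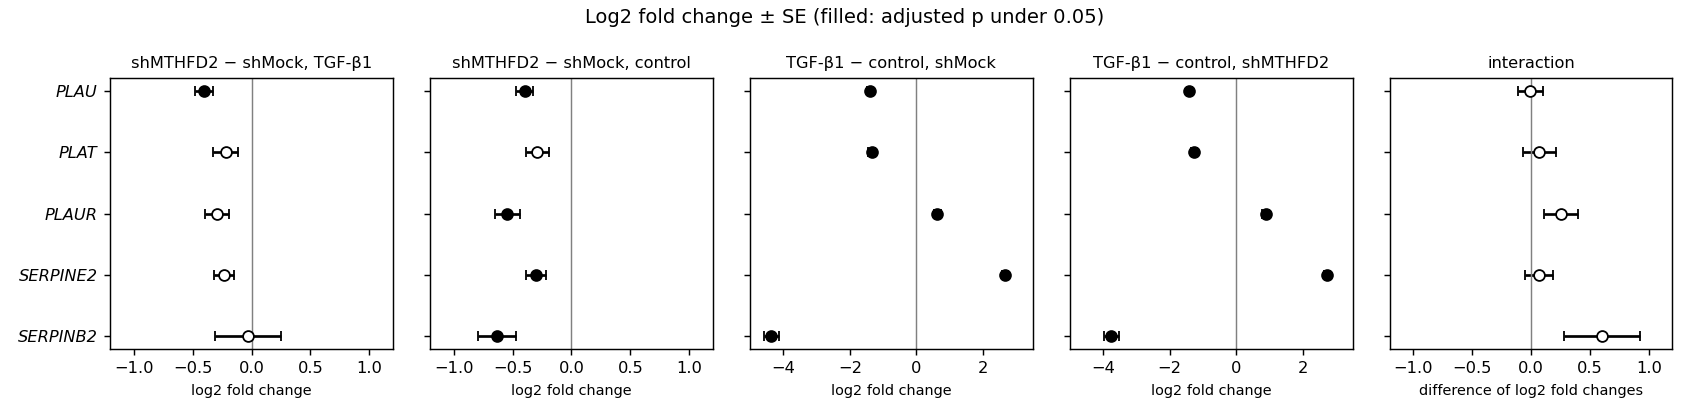
Log2 fold change of each gene in the 5 comparisons, with bars of 1 SE and filled points where the adjusted p by edgeR was under 0.05. The axes of the TGF-β1 panels run wider than those of the knockdown and interaction panels. All points of the TGF-β1 panels are filled, 4 of 5 in the knockdown panel without TGF-β1, 1 with it, and none for the interaction.

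Whether the lines responded differently to TGF-β1 was tested by the interaction, the response in shMTHFD2 minus that in shMock. No member passed. The value was -0.01 (SE 0.11) for PLAU, 0.07 (SE 0.14) for PLAT and 0.07 (SE 0.12) for SERPINE2, all under 1 SE from 0. PLAUR was at 0.26 (SE 0.15, adjusted p 0.486), 0.10 to 0.37 with a library left out, and SERPINB2 at 0.60 (SE 0.32, adjusted p 0.460; edgeR), the smaller of the lines' falls being in shMTHFD2. Without shMTHFD2 TGF-β1 library 2 the SERPINB2 value was -0.12. Over all tested genes only 0.0889% were called in either direction, 12 genes by edgeR and 105 by DESeq2, with 1718 at an unadjusted p under 0.05. Few genes of any kind passed here, and a missed threshold does not show equal responses.

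**Figure D4:**
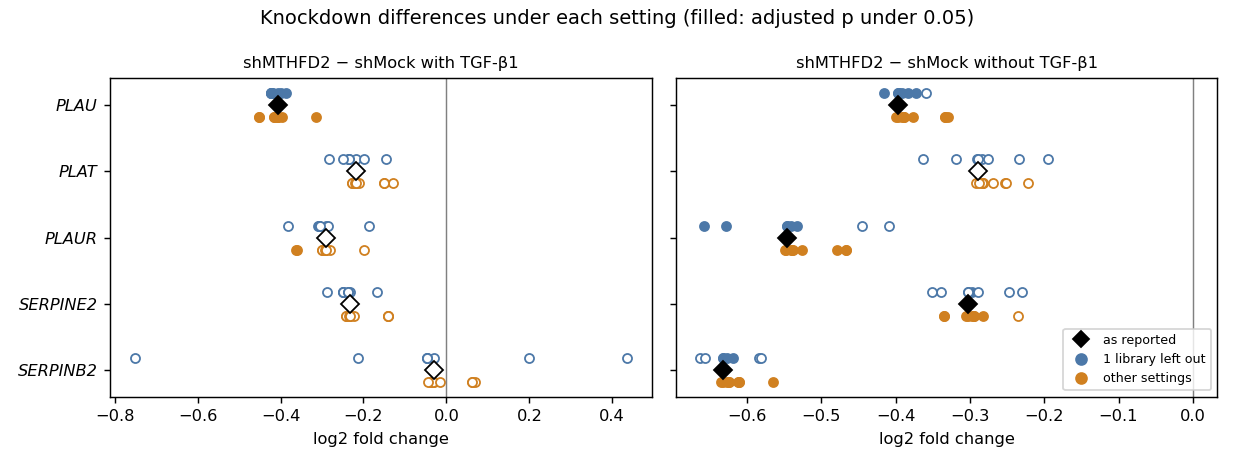
Log2 fold change between the lines, with TGF-β1 on the left and without it on the right, as reported (diamonds), with 1 library left out (blue) and under the other settings (orange). Filled symbols have an adjusted p under 0.05. With TGF-β1, PLAU runs from -0.45 to -0.32 and is always filled, whereas SERPINB2 runs from -0.75 to 0.44 and is always open.

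The wider system of pericellular proteolysis was followed in 4 lists with 53 genes, of which 36 passed the minimum of 1 CPM on average. With TGF-β1, 16 of the 36 were called higher and 10 lower in shMock, and 15 and 9 in shMTHFD2. The shares over all tested genes were 17.3% and 18.1% in shMock, and 12.8% and 11.0% in shMTHFD2. Between the lines, 11 were called lower and none higher without TGF-β1, and 11 lower and 1 higher with it. Over all tested genes, 8.19% were lower and 3.25% higher without TGF-β1, and 8.23% and 4.83% with it. The counts between the lines moved with the libraries used: without TGF-β1 there was 1 lower call without shMTHFD2 control library 2, and there were 3 without shMock control library 2, 6 without shMock control library 1, 7 without shMTHFD2 TGF-β1 library 1 and 7 with library totals. With TGF-β1 there were 3 without shMTHFD2 TGF-β1 library 2, 4 without shMock TGF-β1 library 1, 5 without shMTHFD2 TGF-β1 library 1 and 6 with library totals. Without TGF-β1 the higher calls came to 2 with library totals or no filter and 1 without shMock control library 1. With TGF-β1 they came to 2 with library totals and with the replicate block plus GC and length offsets. The 9 lower calls with TGF-β1 in shMTHFD2 came to 5 without shMTHFD2 control library 1 or shMTHFD2 TGF-β1 library 2. The 1 higher call, LRPAP1, a chaperone of these receptors named here after its value was seen, was lost without any 1 of 6 libraries, the exceptions being the shMTHFD2 controls, and with median-of-ratios factors or filterByExpr. No gene of the 4 lists passed the interaction test in edgeR, and 1 did in DESeq2.

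The substrate itself and its docking proteins come first. Plasminogen (PLG) had at most 5 counts in a library, below the minimum of 1 CPM, and AMBP and HRG were also below it. Of the 4 tested docking proteins, which bind plasminogen at the surface, 2 were called lower with TGF-β1 in each line and none higher. Among all tested genes 18.1% were called lower and 17.3% higher in shMock, and 11.0% and 12.8% in shMTHFD2. S100A10, the light chain of the annexin A2 tetramer, stood at 331 and 357 CPM in shMock controls and 212 and 190 CPM with TGF-β1, a log2 fold change of -0.78 (SE 0.10). ENO1, a glycolytic enzyme that also binds plasminogen, was at -0.57 (SE 0.08) in shMock, and ENO1-AS1 overlaps it on the opposite strand. Without TGF-β1, S100A10 (-0.51), ENO1 (-0.36) and ANXA2 (-0.26) were called lower in shMTHFD2, as were 8.19% of all tested genes. However, S100A10 and ENO1 did not pass without control library 2 of either line. ANXA2 did not pass without any 1 of the 4 control libraries or either shMTHFD2 TGF-β1 library. In shMTHFD2 the TGF-β1 falls, -0.36 for S100A10 and -0.31 for ENO1, were lost without shMTHFD2 control library 1 or shMTHFD2 TGF-β1 library 2, and for ENO1 also without TGF-β1 library 1.

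All 14 partners and clearance receptors of uPAR were tested. With TGF-β1, 9 were called higher and 2 lower in shMock, and 8 higher and 1 lower in shMTHFD2. The lower calls were near or below the shares of 18.1% and 11.0% over all tested genes. The shares called higher were 17.3% in shMock and 12.8% in shMTHFD2. ITGB3, the β3 chain of the vitronectin receptor, led: it was at 31.0 and 25.9 CPM in shMock controls and 190 and 173 CPM with TGF-β1. Its log2 fold change was 2.67 (SE 0.10) in shMock and 2.63 (SE 0.10) in shMTHFD2, although AC068234.1 shares exon bases with it on the same strand. ITGAV, the αV chain that pairs with ITGB3, rose by 1.16 (SE 0.09) in shMock and by 0.75 (SE 0.09) in shMTHFD2. Its interaction did not pass (adjusted p 0.221, edgeR). AC017101.1 overlaps ITGAV on the opposite strand. VLDLR, a receptor that takes up protease and serpin complexes, is overlapped by VLDLR-AS1 on the opposite strand. VLDLR rose by 0.92 (SE 0.17) in shMock and by 0.87 (SE 0.18) in shMTHFD2. SORL1, a weakly expressed sorting receptor of the same family, went from 4.04 and 2.52 CPM to 1.28 and 0.803 CPM in shMock. It fell by 1.65 (SE 0.39) in shMock and by 1.05 (SE 0.36) in shMTHFD2. These SORL1 calls were lost without shMock control library 1 and, in shMTHFD2, without any 1 of its 4 libraries.

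Between the lines, VLDLR was again among the clearest. It stood at 17.1 and 15.2 CPM in shMock with TGF-β1 and at 8.27 and 8.90 CPM in shMTHFD2, a log2 fold change of -0.91 (SE 0.17) at an adjusted p of 0.00251 (edgeR). Without TGF-β1 it was -0.85 (SE 0.18), lost without control library 2 of either line. ITGA3, an integrin chain reported to bind uPAR, was at -0.51 (SE 0.08) without TGF-β1, where it passed without each library in turn. ITGB3 was at -0.34 (SE 0.10) there, lost without either library of shMTHFD2 in either treatment or shMock control library 1. With TGF-β1, ITGAV (-0.40) and ITGB3 (-0.38) were lower, and both calls were lost without shMock TGF-β1 library 1 or shMTHFD2 TGF-β1 library 2, that of ITGB3 also without shMTHFD2 TGF-β1 library 1.

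The list of other inhibitors has 17 genes, of which 9 were tested. They include SERPINH1, a collagen chaperone, and SERPINF1, pigment epithelium-derived factor, which share the serpin fold but inhibit no protease. With TGF-β1, 3 were called lower in each line, and the 1 called higher was SERPINH1. The shares over all tested genes were 18.1% lower and 17.3% higher in shMock, and 11.0% and 12.8% in shMTHFD2. The 1 higher call of 9 lies below these shares. Between the lines, 4 were called lower without TGF-β1 (SERPINF1, SERPINH1, TFPI2 and SERPINB8) and 3 with it (SERPINF1, TFPI2 and SERPINB8), and none higher. Of all tested genes, 8.19% were called lower and 3.25% higher without TGF-β1, and 8.23% and 4.83% with it. TFPI2, a secreted Kunitz inhibitor of plasmin, went from 486 and 502 CPM to 98.6 and 106 CPM in shMock, a log2 fold change of -2.27 (SE 0.10), and was at -2.17 (SE 0.10) in shMTHFD2. GNGT1 and AC002076.1 overlap TFPI2 on the opposite strand. TFPI, the tissue factor pathway inhibitor, went from 214 and 219 CPM to 141 and 131 CPM in shMock, at -0.67 (SE 0.08), and was at -0.73 (SE 0.08) in shMTHFD2. AC007319.1 overlaps TFPI on the opposite strand. SERPINH1 rose by 0.90 (SE 0.08) in shMock and by 1.01 (SE 0.08) in shMTHFD2. Between the lines, SERPINF1 was at -0.56 (SE 0.13) without TGF-β1 and -0.44 (SE 0.13) with it. TFPI2 was at -0.42 (SE 0.09) without TGF-β1 and -0.32 (SE 0.10) with it. SERPINB8, an intracellular serpin, overlaps HMSD on the same strand and AC009802.1 on the opposite strand. It was at -0.30 (SE 0.09) without TGF-β1 and -0.38 (SE 0.09) with it. These 6 calls were lost in 2 to 5 of the fits with a library left out. Without TGF-β1, SERPINF1 and TFPI2 were lost without control library 2 of either line, and SERPINB8 without any 1 of the 4 control libraries or shMTHFD2 TGF-β1 library 1. With TGF-β1, all 3 were lost without shMTHFD2 TGF-β1 library 2 or shMock TGF-β1 library 1. Beyond these, SERPINF1 and SERPINB8 were lost without shMTHFD2 TGF-β1 library 1, and SERPINF1 and TFPI2 without shMock TGF-β1 library 2 or shMock control library 1.

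All 9 tested genes of 15 in the list of thrombin and plasmin substrates and receptors changed with TGF-β1, 6 higher and 3 lower in each line. The shares over all tested genes were 17.3% higher and 18.1% lower in shMock, and 12.8% and 11.0% in shMTHFD2. F2RL1, the protease-activated receptor PAR2, went from 13.2 and 16.2 CPM to 60.6 and 53.7 CPM in shMock, a log2 fold change of 1.96 (SE 0.12), and rose by 1.68 (SE 0.12) in shMTHFD2. HGF, the hepatocyte growth factor whose precursor urokinase can cleave, went from 609 and 542 CPM to 177 and 162 CPM, at -1.76 (SE 0.10) in shMock and -1.54 (SE 0.10) in shMTHFD2. PDGFC, a growth factor that tissue-type activator can cleave, rose by 1.16 (SE 0.07) and 1.03 (SE 0.07). With TGF-β1, F2RL1 (-0.60, SE 0.11) and MET, the HGF receptor (-0.55, SE 0.08), were lower in shMTHFD2 and passed without each library in turn. F3, tissue factor, was at -0.44 (SE 0.09) without TGF-β1 and -0.32 (SE 0.09) with it. The F3 calls were lost without shMTHFD2 control library 2 or shMock control library 1, and without either shMTHFD2 TGF-β1 library or shMock TGF-β1 library 2.

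**Figure D5:**
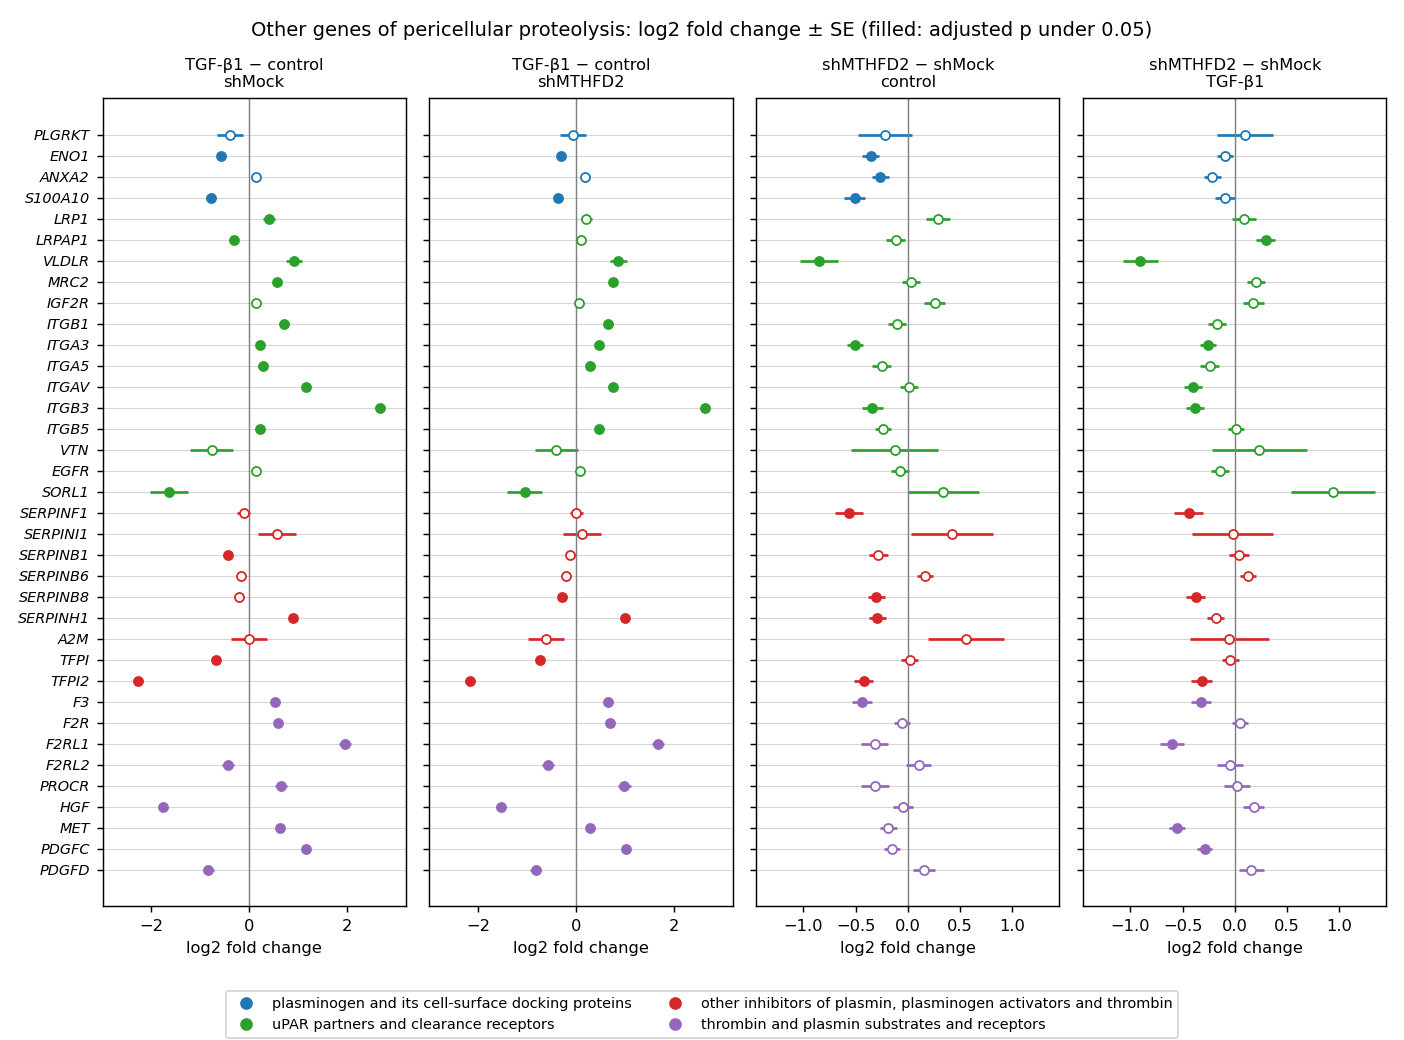
Log2 fold change of the 36 tested genes of the 4 lists in the TGF-β1 and knockdown comparisons, with bars of 1 SE, coloured by list, and filled where the adjusted p by edgeR was under 0.05. The axes of the knockdown panels are narrower. ITGB3 lies farthest to the right and TFPI2 farthest to the left with TGF-β1, and all but 1 of the filled points between the lines lie left of 0.

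The genes most like each member over the 8 libraries were sought among protein-coding genes by Pearson's r of log2(CPM + 0.5), as a description; the 8 points share 4 groups, so a strong TGF-β1 response alone gives a high r. The first 3 for PLAU were PMP22, TMTC1 and ADAMTS1 (r of 0.996 to 0.997), and for PLAT they were TFPI2, CCDC68 and SCIN (0.994 to 0.995). For PLAUR they were CALR, CCT2 and FKBP10 (0.992 to 0.994). For SERPINE2 they were CDH6, LMCD1 and NOX4 (0.999 each); NOX4 stood at a mean of 2.13 CPM in shMock controls and 50.0 CPM with TGF-β1. For SERPINB2 they were C1orf115, HACD4 and IL16 (0.995 to 0.998).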

How the data were processed

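The deposited table, named for FPKM, in fact lists raw whole-number counts: 60666 Ensembl IDs by 8 libraries. STAR 2.7.1a, DESeq2 1.32.0 and build GRCh38 are named in the submitters' processing notes, without their roles, and for the counter, annotation and use of strand nothing is given in the sources used here. Titles gave the groups. In 3 shMTHFD2 samples the genotype field names another gene, and the extraction text mentions another cell line and hairpin. Every column had a sample.

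From the counts, edgeR 4.0.16 in R 4.3.3 fitted all 8 libraries together with TMM scaling and a mean per group (4 residual degrees of freedom), over the 13493 genes that reach 1 CPM on average, which hold 99.8 to 99.9% of the counts. Its quasi-likelihood test gave 5 comparisons, with Benjamini-Hochberg adjustment over all 13493 genes and a threshold of 0.05. Each SE is approximate, being the absolute log2 fold change over the square root of F. Levels per kb use the merged exon length of GENCODE release 29. Library pairs of a group differed by more than counting error (chi-square per degree of freedom 6.47 to 11.2). The test was also run on simulated data, for the knockdown comparison with TGF-β1 only and with changes larger than the members' knockdown differences. Its outcome is not given here, so it says nothing of how well such small differences are found.

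The alternatives were DESeq2 1.42.0, median-of-ratios factors, library totals, no filter, filterByExpr, the compared groups alone, the replicate block, GC and length offsets (and both together), and each library left out. The members and lists were chosen with earlier results of these data known. Beside the members, at most 3 genes a list and comparison were picked for naming: those past the threshold with the largest absolute log2 fold change. A gene picked in 1 comparison may be named in others too, as VLDLR, ITGAV and SERPINH1 are. LRPAP1 and the untested PLG, AMBP and HRG are named outside this rule. The lists leave out 2 genes that are not reported here. Promoters of 4 members were searched for motifs, and no protein sequence was used here.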

Additional observations from a re-analysis of the deposited data

How the results depend on the processing

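Under the 17 alternatives, all 5 genes kept their direction and stayed past the threshold in both TGF-β1 comparisons. The cause of the changes below was not tested. With TGF-β1, 1 gene was called between the lines as reported, and 2 with DESeq2, with no filter, with GC and length offsets, and with the replicate block plus those offsets. Without TGF-β1, 4 were called, and 0 to 4 with a library left out: 2 without shMock control library 1 or shMTHFD2 control library 1, 1 without shMTHFD2 control library 2 and 0 without shMock control library 2. Same-numbered libraries shared little deviation (r -0.02 to 0.08), which cannot show whether they were cultured or prepared together. The replicate block alone changed no member's call: 1734 genes were called between the lines with TGF-β1 and 1530 without it, against 1762 and 1543.

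Signs turned for SERPINB2 between the lines with TGF-β1 and in the interaction. The former was 0.0611 with library totals, 0.0684 with GC and length offsets and 0.0610 with the replicate block added to them, and ran from -0.751 to 0.436 with a library left out, 0.198 without shMock TGF-β1 library 1. In the interaction PLAU was 0.0135 with library totals. With a library left out, the interaction ran from -0.0643 to 0.0101 for PLAU, -0.0417 to 0.144 for PLAT, 0.101 to 0.367 for PLAUR, -0.0202 to 0.129 for SERPINE2 and -0.119 to 1.05 for SERPINB2.

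Counts of all genes called fell to 841, 855 and 1001 between the lines with TGF-β1, without shMTHFD2 library 1, shMock library 1 or shMTHFD2 library 2 of that treatment. Without TGF-β1 they fell to 585, 637 and 973 without shMock control 2, shMTHFD2 control 2 or shMock control 1. The interaction called 12 genes, 105 with DESeq2, 321 with no filter, 19 with GC and length offsets and 3 to 192 with a library left out. SERPINB2 after TGF-β1 rests on 42 to 97 counts a library, the fewest of the members.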
